A study of Mus musculus with 8 samples.

Results

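The genes described here act at the passage of a cell out of G1 and in the copying of its DNA, and they were followed in mouse bone marrow pro-B cells with and without menin. They are 43 genes of the 18193 with a symbol on the array, taken as every probe set whose platform gene symbol was one of a list of G1/S and replication genes. They hold 104 of 45037 probe sets, of which 92 were kept after a filter on dim signal, and every one of the 43 genes had at least 1 kept probe set. Probe sets whose names end in _x_at or _s_at can match several transcripts and are given apart from the others: 14 kept sets end in _x_at and 7 in _s_at, which leaves 71, called ordinary here. The 12 that were not kept include 10 of the ordinary kind and 2 ending in _x_at.

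Menin, encoded by Men1, is a nuclear protein that works with the MLL histone methyltransferases, and the study asked which genes it controls in B-cell progenitors. The menin-deficient group is 4 mice with floxed Men1 alleles and Rag1-cre, a Cre driven from a gene that lymphoid progenitors switch on. The control group is 4 mice with the same floxed alleles and no Cre, so the floxed alleles are common to both groups, and what Cre does by itself cannot be told apart from what the loss of menin does. All 8 mice were 2 to 3 weeks old by the sample labels, and each gave 1 array (an Affymetrix whole-genome mouse array) hybridised with amplified RNA of Fraction B pro-B cells, sorted from marrow for B220, CD43 and HSA and against BP-1. With 4 arrays a group, precision is limited by their number.

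Men1 itself was lower: its brightest probe set read 7.85, 8.24, 8.50 and 8.03 in menin-deficient replicates 1 to 4, against 9.59, 9.19, 9.58 and 9.81 in control replicates 1 to 4 (log2 values). The difference was -1.39 (SE 0.18, limma adjusted p = 0.00617), or 2.62-fold lower; its position relative to the deleted exons was not examined here. Array medians lay between 3.29 and 3.50, arrays of 1 group correlated at 0.990 to 0.995, and 38.2% to 38.8% of the probe sets on an array held the table's floor value, 2.08. Markers were summed and counted on the brightest probe set of each gene. B-lineage markers were high on all arrays, with Cd79b averaging 16.17 in menin-deficient and 16.08 in control cells. Summed over 11 genes, they ran from 156.3 to 157.3 in menin-deficient and from 154.6 to 155.8 in control arrays, without overlap. Among these genes Vpreb3 and Dntt were called higher and Rag1 lower. Igll1 (0.38, on an _x_at set) and Blnk (0.39) had groups apart without passing, and the brightest sets of the others overlapped. Of 5 Ebf1 sets, 1 that was not the brightest was lower (1416301_a_at, -0.75, limma adjusted p = 0.0162). The dimmer Dntt set 1420166_at had the opposite sign (-0.44, limma adjusted p = 0.0727) with groups apart, and 1449757_x_at gave 0.23 without passing. The summed log2 level of 8 T-cell markers ran from 45.1 to 46.3 in menin-deficient and from 38.0 to 39.3 in control arrays; Thy1, Lat, Cd5 and Cd3g were called higher, while Cd3d, Cd3e and Cd4 averaged 2.08 to 2.10 in both groups. For 6 NK-cell markers the sums ran from 45.5 to 50.5 in menin-deficient and from 40.9 to 44.2 in control arrays, with Ncr1 and Nkg7 higher. Ncr1 and Cd3g were dim, at 4.62 and 4.73 in menin-deficient and 3.20 and 3.95 in control cells. Car1 among erythroid markers was higher, whereas 9 myeloid, 4 stem-cell and 4 sort markers gave no call on their brightest sets; a dimmer set of the sort marker Ptprc, which encodes B220, passed as lower (-0.72). The 9 myeloid markers differed by -0.12 (S100a8) to 0.77 (Lyz2, adjusted p = 0.0557, groups apart). The 4 stem-cell markers differed by 0.17 (Gata2) to 0.73 (Cd34, adjusted p = 0.127). Of 4 markers of the later pre-B stage, Il2ra was lower (-0.87, adjusted p = 0.0289). Ms4a1 was lower on its dimmer set (-1.41, adjusted p = 0.00773), at 11.15 in menin-deficient and 12.57 in control cells. It differed by -0.55 on its brightest set (adjusted p = 0.161). Cd2 and Ighm had the opposite sign on their brightest sets (0.04 and 0.14) and did not pass. The summed level of the 4 markers overlapped, from 48.9 to 50.4 in menin-deficient and from 49.9 to 52.0 in control arrays. The part of these markers in the results below was not tested.

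As background, a cell commits to division when D-type cyclins with Cdk4 or Cdk6, and then cyclin E with Cdk2, phosphorylate the retinoblastoma protein and free E2F transcription factors, which switch on replication genes. In G1 the Mcm helicase is loaded onto origins with the help of Cdc6 and Cdt1, and at the start of S phase Cdc45 and the GINS complex join it to make it active. Pro-B cells divide under the influence of interleukin-7, and D-type cyclins with Cdk4 and Cdk6 are known to drive that division.

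Promoters of these genes are known for E2F and CCAAT elements, and the RefSeq promoter windows (GRCm38.p6, 250 bases before to 50 after a start site) show how far that holds here. Windows were matched for 35 of the 43 genes, 43 windows in all. Gins2, Rfc2, Ccne2 and Mcm4, which have calls described below, had no matched window. The letters TTTCCCGC, TTTGGCGC, TTTCGCGC or TTTGCCGC, which are 8-base forms of the E2F element, were found on either strand in 15 of 43 windows (34.9%), against 744 of 32851 windows of all genes (2.26%). CCAAT was found on either strand in 58.1% of the members' windows and in 37.4% of all windows; a match of letters is not evidence of binding. The windows of Mcm3 (chr1:20820263-20820562, minus strand), Mcm7 (chr5:138171834-138172133, minus strand) and Cdk4 (chr10:127063285-127063584, plus strand) are shown because these genes rose in menin-deficient cells, and that of Mcm6 (chr1:128359656-128359955, minus strand) because its probe sets went opposite ways. Capitals mark the E2F letters or their reverse complement, which occur 2 times in Mcm3, 3 times in Mcm6 with a pair that overlaps, and 2 times in this one of the Mcm7 windows, the other window holding none. The Cdk4 window holds neither the E2F letters nor CCAAT, which says nothing of whether an E2F protein acts there.
Mcm3: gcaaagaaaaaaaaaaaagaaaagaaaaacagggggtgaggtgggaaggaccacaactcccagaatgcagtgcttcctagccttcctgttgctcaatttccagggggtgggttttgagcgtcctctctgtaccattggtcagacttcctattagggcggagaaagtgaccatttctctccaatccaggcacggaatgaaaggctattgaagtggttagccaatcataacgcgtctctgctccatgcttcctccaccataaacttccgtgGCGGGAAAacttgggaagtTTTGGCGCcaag
Mcm6: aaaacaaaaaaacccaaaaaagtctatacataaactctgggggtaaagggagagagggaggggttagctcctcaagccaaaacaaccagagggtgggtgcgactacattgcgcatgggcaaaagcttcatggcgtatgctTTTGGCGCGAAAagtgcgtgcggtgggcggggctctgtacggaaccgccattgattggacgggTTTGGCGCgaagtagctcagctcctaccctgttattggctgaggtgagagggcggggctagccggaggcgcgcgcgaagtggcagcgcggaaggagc
Mcm7: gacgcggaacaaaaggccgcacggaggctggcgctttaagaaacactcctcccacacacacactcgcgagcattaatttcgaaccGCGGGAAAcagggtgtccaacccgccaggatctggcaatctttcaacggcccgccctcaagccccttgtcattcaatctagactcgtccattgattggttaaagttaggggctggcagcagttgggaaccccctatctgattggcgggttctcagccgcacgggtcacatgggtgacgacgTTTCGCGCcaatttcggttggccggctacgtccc
Cdk4: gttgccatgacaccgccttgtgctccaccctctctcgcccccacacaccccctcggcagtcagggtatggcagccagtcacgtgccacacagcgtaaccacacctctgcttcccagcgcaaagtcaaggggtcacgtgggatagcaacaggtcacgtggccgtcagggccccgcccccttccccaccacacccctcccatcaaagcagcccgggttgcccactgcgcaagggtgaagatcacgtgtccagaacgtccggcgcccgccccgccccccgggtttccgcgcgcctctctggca

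Most of the replication genes were not called between menin-deficient and control cells. Among the 71 kept probe sets ending neither in _x_at nor in _s_at, 6 from 5 genes (Cdk4, Gins2, Mcm3, Mcm7 and Rfc2) were higher and 1 (Ccne2) was lower at a limma adjusted p under 0.05, and 64 did not pass. Over all 23511 such probe sets on the array, 9.63% were higher and 4.15% were lower, so the members' 6 and 1 of 71 are close to that background. Taking the brightest of these probe sets for each gene, 5 of 43 were higher and 1 was lower, against 14.5% higher and 3.42% lower over 11558 genes chosen the same way. The median log2 difference, menin-deficient minus control, was 0.09 over the 43 genes and 0.13 over the 11558, and 74.4% of the members against 69.2% of all genes had a positive difference. Over all 71 probe sets the median was 0.13, against 0.05 for all 23511, with differences from -0.58 to 0.60. Since the arrays measure sorted populations, a change in the share of cells that carry a transcript and a change in its amount per cell cannot be told apart. With each array centred on its median tested probe set, 4 of the 71 were called (Cdk4 1422440_at, Gins2, Mcm3 and Ccne2). Without menin-deficient replicate 2 or control replicate 1 the count was 2, and without menin-deficient replicate 4 it was 3.

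**Figure D1:**
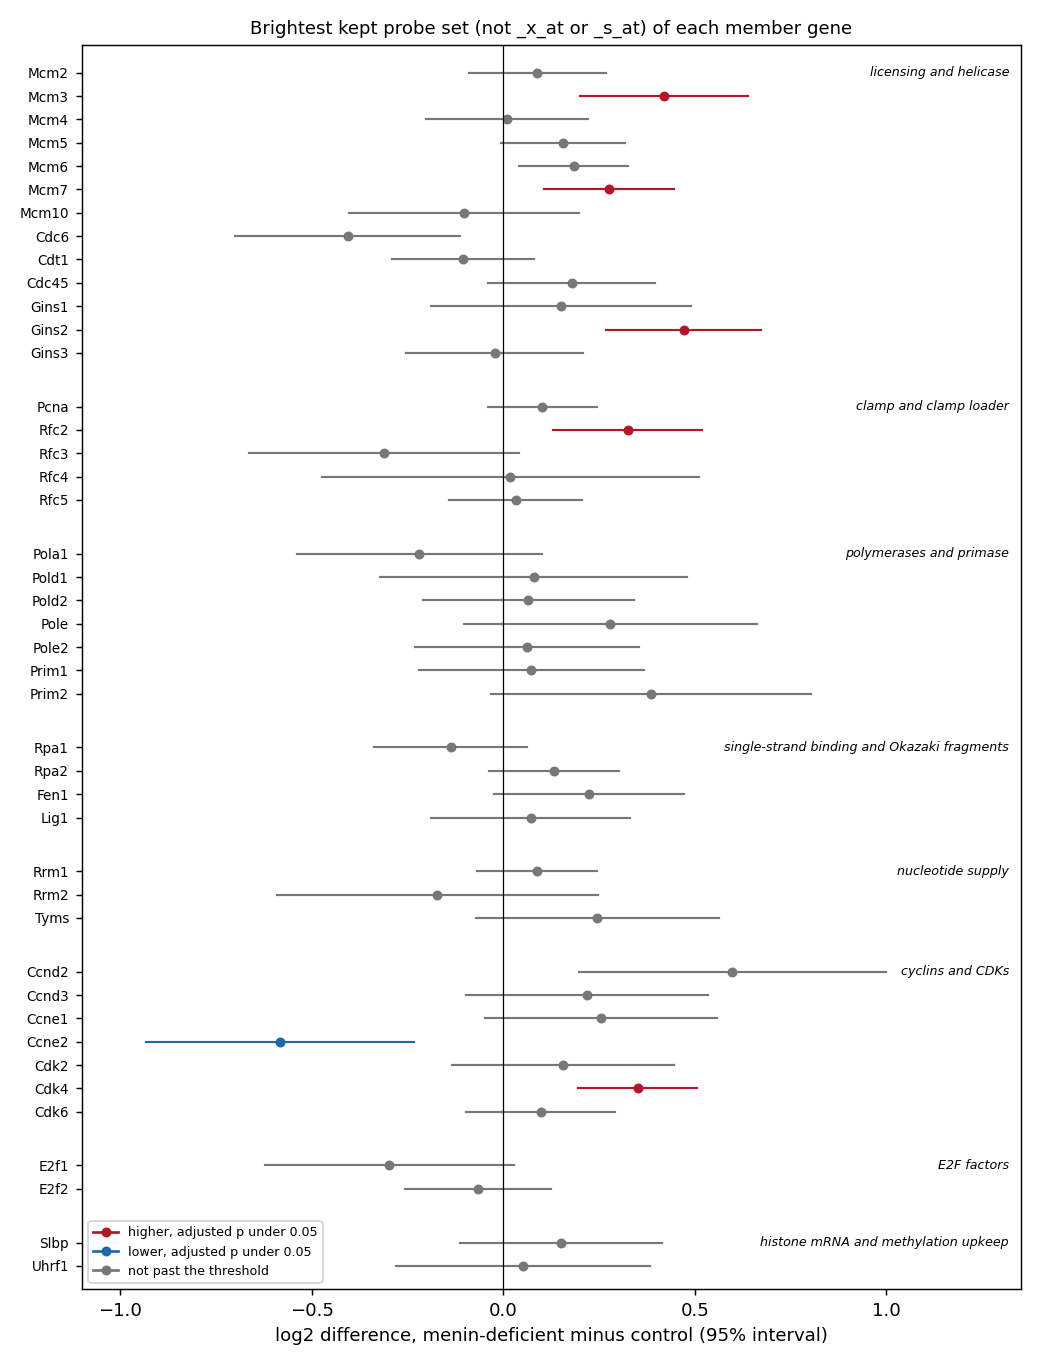
Log2 difference, menin-deficient minus control, with its 95% interval, for the brightest kept probe set not ending in _x_at or _s_at of each of the 43 genes, grouped by role; red marks the 5 genes called higher, blue the 1 called lower and grey those that did not pass. Most intervals cross 0, and the differences run from -0.58 (Ccne2) to 0.60 (Ccnd2, not called).

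Of the 13 licensing and helicase genes, 3 rose (Gins2, Mcm3 and Mcm7), none fell and 10 did not pass on their brightest probe set, and the median difference was 0.15. Over all 11558 genes taken this way 14.5% were higher and 3.42% lower, with a median of 0.13. Whether 3 of 13 departs from that share was not tested. Gins2, a subunit of the GINS complex that activates the helicase, read 13.88, 13.84, 13.64 and 13.71 in menin-deficient replicates 1 to 4 and 13.24, 13.47, 13.16 and 13.31 in control replicates 1 to 4 (probe set 1452881_at). Every menin-deficient array lay above every control array, and the rise was 1.39-fold (log2 difference 0.47, SE 0.085, limma adjusted p = 0.0158). Its second probe set, 1428713_s_at, rose by 0.36 (adjusted p = 0.0220) with groups that also stood apart, from 13.62 to 13.78 in menin-deficient and 13.16 to 13.45 in control arrays. Without menin-deficient replicate 2 the adjusted p of 1452881_at was 0.0512, and 1428713_s_at missed the threshold without menin-deficient replicate 2 or 4 or control replicate 4, at up to 0.0649. The other GINS members did not pass: Gins1 differed by 0.15 (95% interval -0.19 to 0.49), and Gins3 by -0.02 and 0.14 on its 2 probe sets.

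Mcm3, one of the subunits of the Mcm2 to Mcm7 helicase ring, read 12.96, 13.01, 12.65 and 12.96 in menin-deficient replicates 1 to 4, against 12.43, 12.41, 12.45 and 12.61 in control replicates 1 to 4 on its brightest such probe set (1426652_at). The groups did not overlap, though menin-deficient replicate 3 came close to control replicate 4, and the rise was 1.34-fold (0.42, SE 0.093, limma adjusted p = 0.0286). Its other probe sets did not share the call: 1426653_at differed by -0.06, the dim 1420029_at by 0.58 (adjusted p = 0.124), 1420028_s_at by 0.08 and 1449705_x_at by 0.11. The call of 1426652_at held without menin-deficient replicate 3 or control replicate 4 and was lost without any other single array, at adjusted p up to 0.0802. Mcm7, a further subunit of the ring, read 14.61, 14.67, 14.49 and 14.63 in menin-deficient and 14.27, 14.51, 14.24 and 14.29 in control replicates 1 to 4 (1416030_a_at). Menin-deficient replicate 3 lay just under control replicate 2, so these groups overlapped, and the rise of 0.28 had an adjusted p of 0.0467. The Mcm7 probe set 1416031_s_at also rose by 0.28 (adjusted p = 0.0306) with no overlap, while 1438320_s_at differed by 0.13 and 1439269_x_at by -0.04 without passing. Both Mcm7 calls held without control replicate 2 and were lost without any other single array, at up to 0.122 for 1416030_a_at and 0.0864 for 1416031_s_at.

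The remaining ring subunits did not pass on their brightest such probe sets. Mcm6 differed by 0.18 (95% interval 0.04 to 0.33, adjusted p = 0.0885), Mcm5 by 0.16, Mcm2 by 0.09 and Mcm4 by 0.01. Mcm10, which steadies the helicase at the fork, differed by -0.10, with menin-deficient arrays tightly placed (10.62 to 10.69) inside a control range of 10.54 to 11.09. Cdc6, the loader that recruits the helicase to origins, read 12.72, 12.64, 12.15 and 12.65 in menin-deficient replicates 1 to 4, against 12.91, 12.95, 12.98 and 12.94 in control replicates 1 to 4. All menin-deficient arrays lay below all controls, yet the difference of -0.41 had an adjusted p of 0.0739, and without menin-deficient replicate 3 it was -0.28 and the adjusted p was 0.0158. Cdt1, the partner of Cdc6 in loading, differed by -0.10 on its brighter probe set and by 0.32 on 1424144_at (adjusted p = 0.0907), and without control replicate 3 that second set gave 0.42 at 0.0146. Cdc45, which joins GINS on the active helicase, differed by 0.18 (95% interval -0.04 to 0.40), and leaving out menin-deficient replicate 3 brought Mcm6 1416251_at to 0.23 and an adjusted p of 0.0317.

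In the clamp and its loader, 1 of 5 genes rose, where 14.5% of all genes were higher on their brightest ordinary set. Rfc2 encodes a subunit of replication factor C, which opens the sliding clamp and sets it on DNA, and read 13.44, 13.47, 13.30 and 13.28 in menin-deficient replicates 1 to 4, against 13.01, 13.17, 12.87 and 13.15 in control replicates 1 to 4 (1417503_at). The lowest menin-deficient array was above the highest control, and the rise was 1.25-fold (0.32, SE 0.083, limma adjusted p = 0.0436). That call held without control replicate 2 and was lost without any other single array, at up to 0.114. The clamp itself, Pcna, differed by 0.10 (95% interval -0.04 to 0.24), with 16.02 to 16.17 in menin-deficient and 15.90 to 16.13 in control arrays. Among the other loader subunits, Rfc4 differed by 0.02 and Rfc5 by 0.03. Rfc3 had probe sets of opposite sign, -0.31 on 1432538_a_at and 0.20 on 1423700_at, neither past the threshold, although 1432538_a_at gave -0.44 at an adjusted p of 0.0398 without menin-deficient replicate 1.

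None of the 7 polymerase and primase genes passed. Prim1, the catalytic subunit of the primase that lays down RNA primers, came nearest: 1418369_at read 14.24, 14.20, 14.07 and 14.05 in menin-deficient and 13.85, 13.69, 13.74 and 14.02 in control replicates 1 to 4. The groups did not overlap, and the difference was 0.32 with a limma adjusted p of 0.0501, or 0.38 at 0.0274 without control replicate 4. The brighter Prim1 probe set gave 0.07 (95% interval -0.22 to 0.37). Prim2, the second primase subunit, gave 0.38 (95% interval -0.03 to 0.80) and -0.03 on its 2 kept probe sets. Pola1, the catalytic subunit of the priming polymerase alpha, differed by -0.22. Pold1 and Pold2 of the lagging-strand polymerase delta differed by 0.08 and 0.07, and Pole and Pole2 of the leading-strand polymerase epsilon by 0.28 and 0.06 on their brightest sets.

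The 4 genes of single-strand binding and Okazaki fragment joining, and the 3 of nucleotide supply, gave no call on 12 ordinary probe sets. Rpa1, a subunit of the single-strand binding protein RPA, read 15.07, 15.02, 15.06 and 15.01 in menin-deficient replicates 1 to 4, against 15.12, 15.08, 15.43 and 15.08 in control replicates 1 to 4. The menin-deficient arrays all lay below the controls and the difference of -0.14 had an adjusted p of 0.327. The second Rpa1 probe set had the opposite sign (0.22), and Rpa2 gave 0.13 and 0.38 without passing. Fen1, the nuclease that trims Okazaki flaps, differed by 0.22, and Lig1, the ligase that seals them, by 0.07. Fen1 is the member within 10 Mb of Men1, and no member lies within 10 Mb of Rag1. Rrm1, the large subunit of ribonucleotide reductase, differed by 0.09, while its partner Rrm2 gave -0.17 and 0.28 and Tyms, the thymidylate synthase, 0.25 and -0.19 on separate probe sets.

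The cyclins and their kinases held the steadiest call of the set and its 1 fall. Cdk4, the G1 kinase of the D-type cyclins, read 13.94, 13.92, 13.79 and 13.89 in menin-deficient replicates 1 to 4, against 13.28, 13.48, 13.38 and 13.22 in control replicates 1 to 4 on 1422440_at. All menin-deficient arrays stood above all controls, and the rise was 1.46-fold (0.55, SE 0.066, limma adjusted p = 0.00534). Its brightest such set, 1422439_a_at, read 14.88, 14.77, 14.77 and 14.74 in menin-deficient and 14.36, 14.61, 14.36 and 14.42 in control replicates 1 to 4, and rose by 0.35 (adjusted p = 0.0177) with no overlap. Likewise 1422441_x_at rose by 0.40 (adjusted p = 0.00759), with 15.32 to 15.40 in menin-deficient arrays and 14.88 to 15.08 in controls. The calls of 1422440_at and 1422441_x_at held whichever array was left out, and that of 1422439_a_at had an adjusted p of 0.0510 without control replicate 1. The call of 1422439_a_at was also lost with centred arrays and with the replicate number fitted as a block (limma adjusted p up to 0.0827). That block also took the call of 1422441_x_at (0.0540). Cdk6, the sister kinase, differed by 0.10, 0.20 and 0.21 on 3 probe sets, and Cdk2, the partner of cyclin E, by 0.16, none past the threshold.

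Ccne2, which encodes a cyclin E, was lower. Its probe set 1422535_at read 12.64, 12.11, 12.16 and 12.35 in menin-deficient replicates 1 to 4, against 12.94, 13.12, 12.62 and 12.91 in control replicates 1 to 4. Menin-deficient replicate 1 lay just above control replicate 3, so the groups overlapped, and the difference was -0.58 (SE 0.15, limma adjusted p = 0.0436). The call held without menin-deficient replicate 1 or control replicate 3 and was lost without any other single array, at up to 0.113. The other cyclin E gene, Ccne1, differed by 0.25 on 1416492_at (95% interval -0.05 to 0.56) and had a call in the opposite direction on an _x_at set, given below. Ccnd2 encodes cyclin D2, one of the D-type cyclins, and 1416122_at read 13.55, 13.08, 13.25 and 13.41 in menin-deficient and 12.59, 13.18, 12.57 and 12.57 in control replicates 1 to 4. Control replicate 2 reached into the menin-deficient range, and the difference of 0.60 had an adjusted p of 0.0600. Without that array 1416122_at gave 0.75 at 0.0175 and 1434745_at gave 0.64 at 0.0313, while the 5 such Ccnd2 probe sets with all arrays ran from -0.44 to 0.60. Ccnd3, the gene of cyclin D3, which B-cell progenitors are known to need for their expansion, differed by 0.10 to 0.33 on 3 probe sets without passing.

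**Figure D2:**
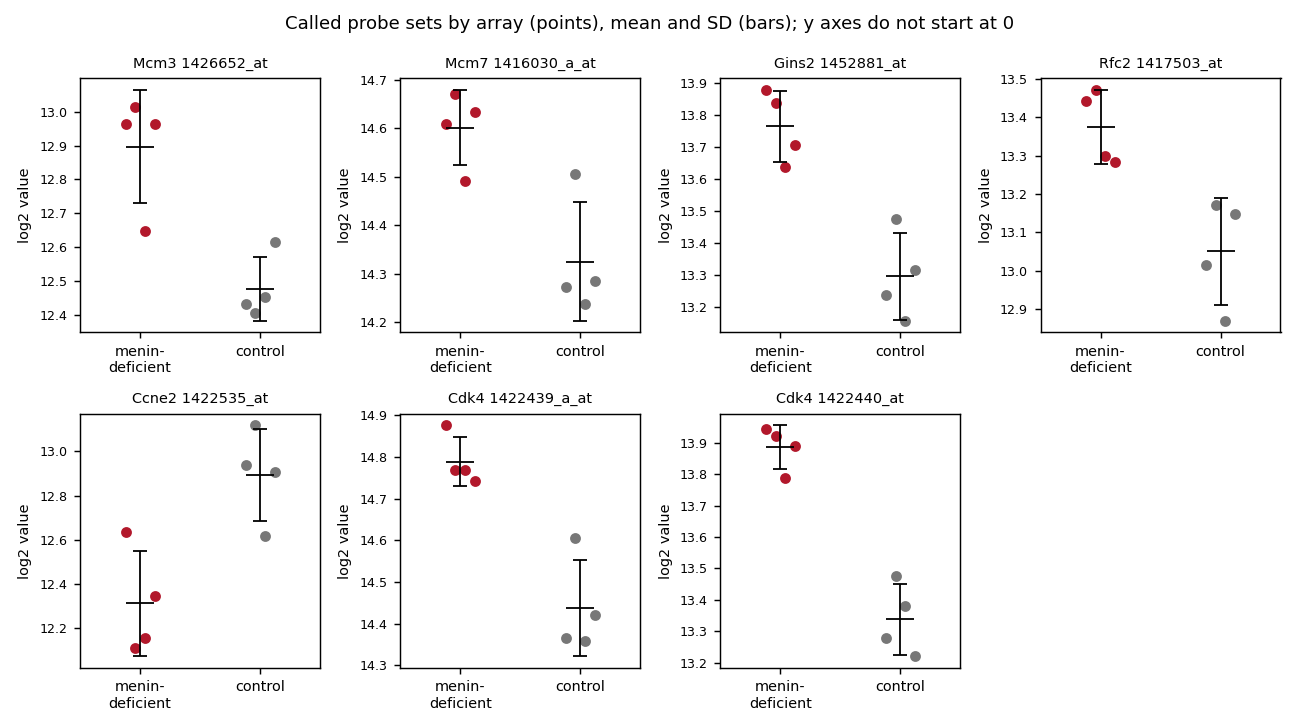
Log2 value on each array (points) of the 7 probe sets, not ending in _x_at or _s_at, that passed the threshold, with menin-deficient arrays left of control arrays; bars give the mean and SD of 4 arrays, and the vertical axes do not start at 0. The 2 Cdk4 sets, Gins2, Mcm3 and Rfc2 show no overlap of groups, whereas 1 array crosses over in Mcm7 and in Ccne2.

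The E2F factors and the last pair of genes gave no call. E2f1, an activator of replication genes, differed by -0.30 (95% interval -0.62 to 0.03) and by -0.23 on its 2 kept probe sets. On the dimmer set, 1431875_a_at, the menin-deficient arrays read 9.26, 9.18, 8.90 and 9.25 and the controls 9.35, 9.35, 9.43 and 9.40, which did not overlap (limma adjusted p = 0.123). E2f2, a related activator, differed by -0.07 and -0.17, so all 4 E2F probe sets had a negative difference and none passed. With the mean of each gene's kept probe sets as the value, 5 members were called: Cdk4 (0.43) and Gins2 (0.42) higher, and Ccne2 (-0.58), E2f1 (-0.26, adjusted p = 0.0409) and Mcm6 (-0.28, adjusted p = 0.0452) lower. That mean takes in sets ending in _x_at and _s_at where a gene has them kept, which E2f1 and Ccne2 do not. For Mcm6 it joins 1416251_at, at 0.18, with 1438852_x_at, at -0.74, so its negative sign comes from the _x_at set. Slbp, which binds the stem-loop of histone mRNA, differed by 0.15 and -0.23. Uhrf1, which guides maintenance methylation to new DNA, gave 0.05 on its brightest set, a sign that turned with centred arrays (-0.01), and 0.22 on the other. Centring lowers every difference by 0.06, so the sign also turned for the brightest sets of Mcm4 (0.01), Rfc4 (0.02) and Rfc5 (0.03).

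Probe sets ending in _x_at had mostly negative differences, 11 of 14. Of the 14 kept, 1 was higher (Cdk4) and 5 were lower (Mcm4, Mcm5, Mcm6, Rfc2 and Ccne1), with a median difference of -0.21; over all 1683 sets of this kind 5.29% were higher and 13.0% lower, with a median of -0.06. Mcm6 1438852_x_at read 13.90, 13.53, 13.40 and 13.52 in menin-deficient replicates 1 to 4, against 14.29, 14.24, 14.49 and 14.30 in control replicates 1 to 4. The groups were well apart, and the fall was -0.74 (SE 0.11, limma adjusted p = 0.0104), where the ordinary Mcm6 set 1416251_at gave 0.18. Mcm4 1436708_x_at read 14.16, 13.31, 13.47 and 13.52 in menin-deficient and 14.12, 14.48, 14.48 and 14.39 in control replicates 1 to 4, a fall of -0.75 (adjusted p = 0.0438) in groups that overlapped through menin-deficient replicate 1. Its call held without that array and was lost without any other, at up to 0.109. Rfc2 1457638_x_at fell by 0.48 (adjusted p = 0.0154), with 9.34 to 9.67 in menin-deficient and 9.86 to 10.10 in control arrays, while the ordinary Rfc2 set rose. Its companion 1457669_x_at differed by -0.28 and passed only without menin-deficient replicate 1, at -0.36 and 0.0449. Ccne1 1441910_x_at fell by 0.37 (adjusted p = 0.0168), with 12.51 to 12.63 in menin-deficient and 12.81 to 13.10 in control arrays. Mcm5 1436808_x_at fell by 0.20 (adjusted p = 0.0266), with 15.63 to 15.75 in menin-deficient and 15.86 to 15.98 in control arrays, and missed the threshold without menin-deficient replicate 2 or 4 or control replicate 1 or 2, at up to 0.0581. The calls of Mcm6, Rfc2 1457638_x_at and Ccne1 held whichever array was left out.

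Among the 7 kept sets ending in _s_at, 2 were higher (Gins2 and Mcm7) and none was lower, with 9.34% higher and 6.95% lower over all 1596 such sets, and medians of 0.08 and 0.05. Of both kinds together 8 were called, which became 4 without menin-deficient replicate 2 or 4 and 5 without control replicate 1 or 4. Each of these 21 sets was then set against the brightest ordinary set of its own gene, as the difference between their log2 differences. In 12 of 14 pairs the _x_at set lay below its partner, in 10 the signs were opposite, and the median gap was -0.36. Over 1256 such pairs from all genes, 79.1% lay below, 45.8% had opposite signs and the median gap was -0.26, so the lean of _x_at sets was present across the array. For _s_at sets, 5 of 7 lay below, 2 had opposite signs and the median gap was -0.15, against 60.9%, 39.5% and -0.08 over 1193 pairs. By a two-sided exact permutation test over the 8 arrays, 11 of the 21 gaps (8 _x_at and 3 _s_at, all negative, with groups that did not overlap) had p = 0.0286, the lowest that 4 against 4 allows. The share of such gaps over the pairs of all genes was not counted, so 11 of 21 cannot be read as particular to the members. Benjamini-Hochberg adjustment puts these at 0.0545, and at least 13 of 21 at the lowest p would be needed to come under 0.05, so the adjusted test says little at this number of arrays. Ordinary probe sets of 1 gene also differed among themselves: 22 genes had several kept, and these shared a sign in 12 genes and not in 10. What each set hybridises to was not tested.

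**Figure D3:**
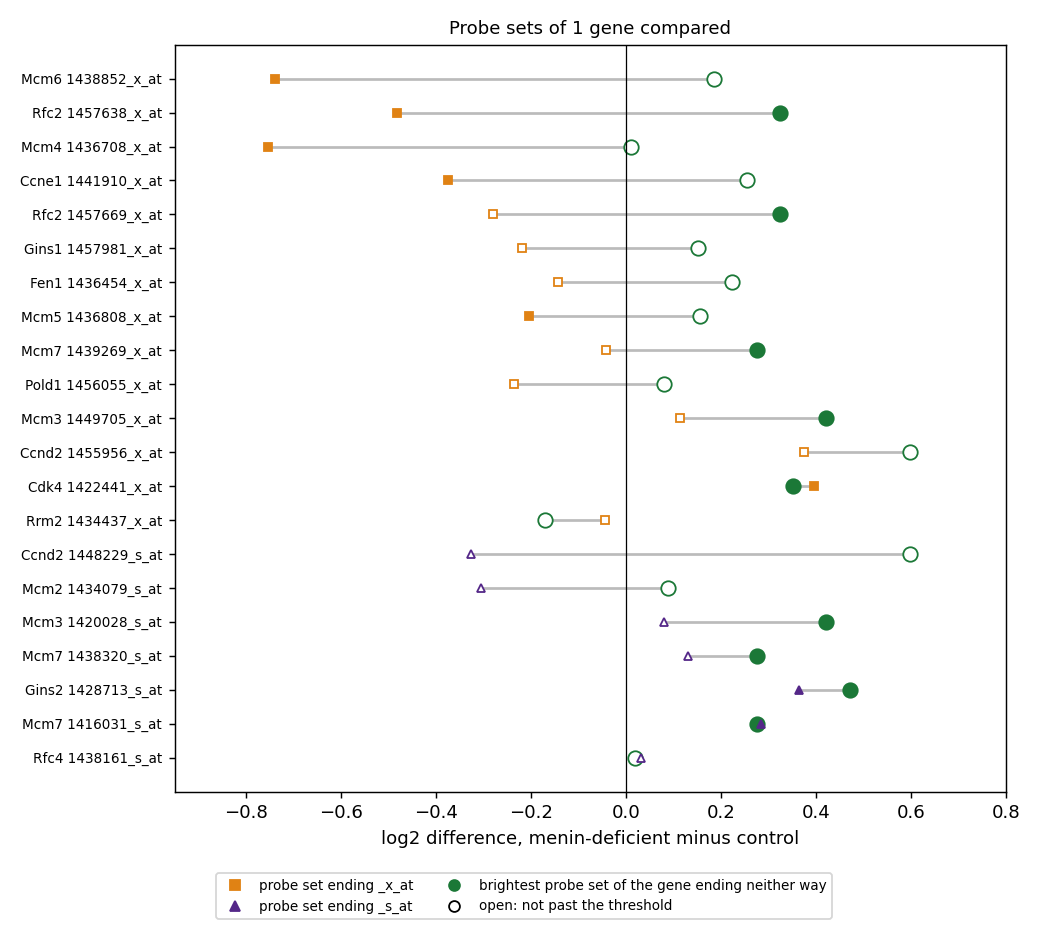
Log2 differences, menin-deficient minus control, of the 14 sets ending in _x_at (squares) and the 7 ending in _s_at (triangles), each joined by a line to the brightest other probe set of the same gene (circles); filled symbols passed the threshold. In 12 of the 14 _x_at pairs the square lies left of the circle, farthest for Mcm6 (-0.74 against 0.18).

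Array by array, the members were not shifted evenly. Relative to the control mean of each gene, the median over the 43 genes was 0.19, 0.15, 0.03 and 0.08 in menin-deficient replicates 1 to 4, against -0.08, -0.01, 0.04 and 0.02 in control replicates 1 to 4. For the 11558 genes taken the same way, the medians were 0.09, 0.14, 0.12 and 0.12 in menin-deficient replicates 1 to 4. Menin-deficient replicates 1 and 2 were thus the arrays on which the members stood above the control mean most often (33 and 32 of 43 genes), replicate 4 had 30 and replicate 3 had 23, no more than control replicates 3 and 4 with 25 and 23. Control replicate 1 had 7 of 43 genes above the control mean, and control replicate 2 had 19. Leaving out menin-deficient replicate 2 or control replicate 1 gave the lowest counts of ordinary member sets called, and also the lowest over all kept probe sets (1796 and 1990 of the 3808 called with every array).

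**Figure D4:**
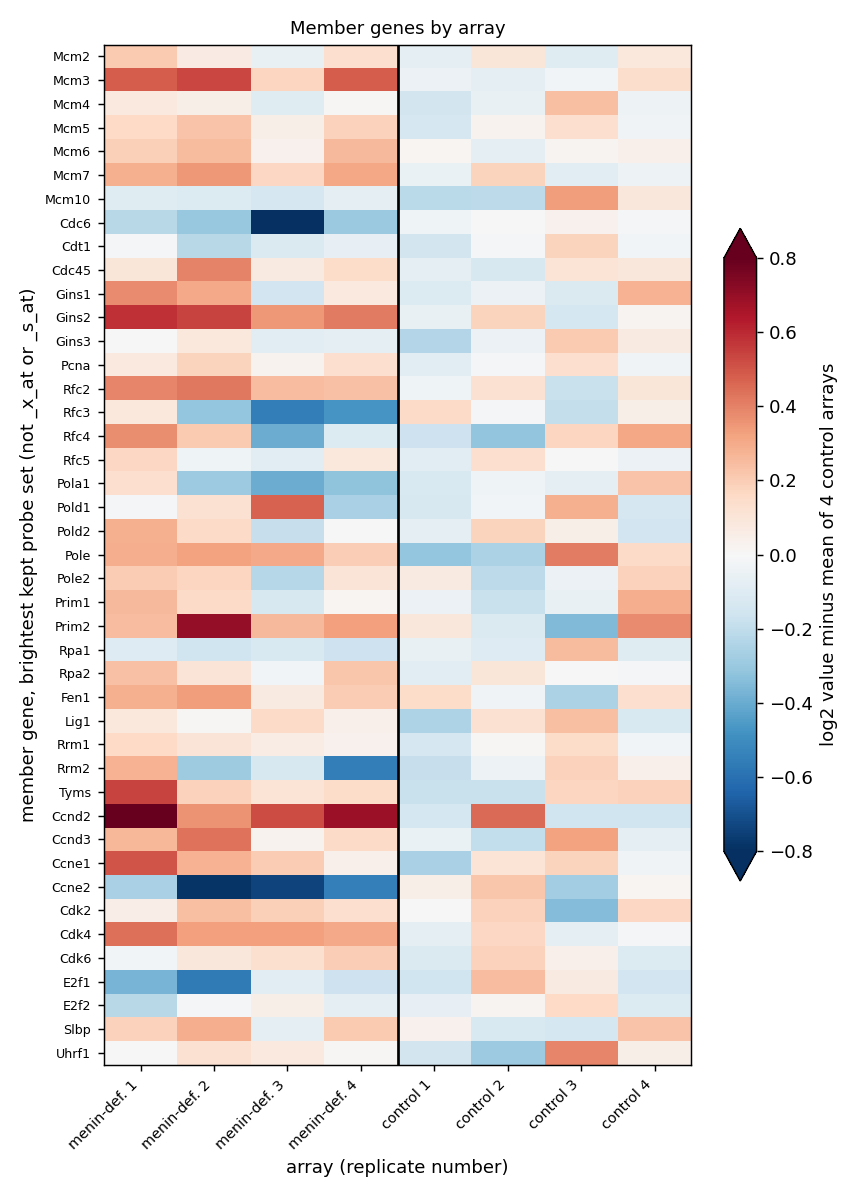
Log2 value minus the mean of the 4 control arrays (colour, cut at ±0.8) for the brightest kept probe set not ending in _x_at or _s_at of each of the 43 genes (rows), with the 4 menin-deficient arrays left of the 4 control arrays (columns). Cdk4, Gins2, Mcm3, Mcm7 and Rfc2 are red on all menin-deficient arrays, Cdc6 and Ccne2 are blue, and menin-deficient replicate 3 is paler or bluer than its fellows over much of the helicase block.

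A wider list of 75 genes of the same pathway, of which 73 were found on the array with a symbol of their own, gave 139 kept ordinary probe sets: 5 were higher and 5 lower (3.60% each), with a median difference of 0.02. Both shares are below or near the 9.63% and 4.15% of all ordinary sets. Among origin and fork genes, Gins4, the fourth GINS subunit, rose by 0.31 (limma adjusted p = 0.0212) and Pole3, an accessory subunit of polymerase epsilon, by 0.29 (0.0316). The Pole3 set 1421015_s_at had the opposite sign (-0.13) and did not pass. Orc4, a subunit of the origin recognition complex, fell by 0.75 on 1431172_at, but 3 brighter sets gave 0.01, 0.01 and 0.23, and Topbp1, an activator of origin firing, fell by 0.56 on 1458480_at while its brighter set gave 0.00. Tfdp1, the DNA-binding partner of E2F proteins, rose by 0.42 (adjusted p = 0.00894), with 14.43 to 14.56 in menin-deficient and 14.00 to 14.22 in control arrays. Rrm2b, the p53-induced small subunit of ribonucleotide reductase, fell by 0.79 on 1437221_at (0.0312), and its other ordinary sets gave no call. Cks1b, a small protein that binds CDKs, fell by 0.17 (0.0467), with 0.15 on its other set.

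Of the 5 CDK inhibitor genes with a kept set, 2 rose and 1 fell. That is 28.6% and 14.3% of their 7 kept ordinary sets, against 9.63% and 4.15% of all ordinary sets. Whether so short a list departs from those shares was not tested. Cdkn1a, which encodes p21, read 12.94, 13.05, 12.55 and 12.86 in menin-deficient replicates 1 to 4, against 12.07, 11.85, 11.46 and 11.75 in control replicates 1 to 4 (1421679_a_at), a rise of 2.10-fold (adjusted p = 0.00892). Cdkn1c, which encodes p57, rose by 2.14-fold (adjusted p = 0.00440), with 8.75 to 9.27 in menin-deficient and 7.81 to 8.04 in control arrays. Both rises kept the groups fully apart, although the second Cdkn1a set gave 0.38 without passing. Cdkn1b, which encodes p27, fell by 0.63 on 1434045_at (0.0246) and gave 0.06 on its dimmer set. Of the wider list's 7 sets ending in _x_at, 6 fell (2 of Dnmt1, 2 of Rnaseh2c, 1 each of Pold3 and Rrm2b) and none rose, and its 5 sets ending in _s_at gave no call. Over all sets ending in _x_at 13.0% were lower and 5.29% higher. Dnmt1, the maintenance DNA methyltransferase, fell by 1.49 on 1447877_x_at and by 0.97 on 1435122_x_at, while its ordinary set 1422946_a_at gave 0.08 (adjusted p = 0.781). The 16 calls of the wider list became 7 without menin-deficient replicate 2, 9 without menin-deficient replicate 4 and 10 without control replicate 1.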

How the data were processed

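Total RNA of sorted cells was amplified and labelled with biotin, per the labels' protocols, so differences in amplification add to the spread. The authors deposited 1 log2 value per probe set and array, a scale read off from the span of 2.08 to 17.4. MAS5 and GCRMA appear in the submitters' processing notes, and the one that gave these numbers is not stated there. The lowest value acts as a floor, which compresses differences of dim probe sets. Groups and replicate numbers came from the sample titles, which the labels call biological replicates. The 64 control probe sets of the manufacturer were left out; 34945 of the other probe sets have 1 gene symbol in the platform annotation, 932 several and 9160 none. All 43 members matched RefSeq by Entrez identifier. Probe sets above the 40th percentile of their own array on at least 4 of 8 arrays were kept (26790). Menin-deficient arrays were compared with control arrays, each probe set on its own, with lmFit and eBayes of limma 3.58.1 (R 4.3.3, data.table version 1.17.8). No covariate was fitted, p values were adjusted over all 26790 by Benjamini-Hochberg, and the threshold was 0.05; where no other fit is named, an adjusted p is from this one. Over all kept probe sets 3808 passed, 2503 higher and 1305 lower, so that 65.7% of calls were higher; the share was 52.3% with centred arrays and 51.7% after quantile normalization. Values are given for every member probe set that passed and for the brightest ordinary set of each gene as far as described, with the rest in ranges. Members and gene lists were chosen with earlier results of these data known. Figures and promoter searches used Python 3.11.15 and matplotlib 3.10.9. The fit was tested on simulated data. Hybridisation dates and 2 genes of the wider list were not analysed here. Alternatives were quantile normalization, centring, other filters, 1 value per gene, other variance models, array weights, a replicate block, a threshold of 0.10 and leaving out each array.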

Additional observations from a re-analysis of the deposited data

Results flagged for a closer look

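Of 184 groups of 4 arrays examined (92 kept member probe sets in each genotype), 8 held 1 array farther from the rest than Dixon's limit allows, and chance gives about 1 in 20 such groups. Menin-deficient replicate 3 was the low array in 3 of them: Mcm3 1426652_at (12.65, against 12.96 to 13.01 in its fellows), Mcm3 1426653_at (10.15, against 10.65 to 10.74) and Cdc6 1417019_a_at (12.15, against 12.64 to 12.72). Control replicate 3 was the high array in another 3: Mcm2 1434079_s_at (12.24, against 11.99 to 12.01), Rpa1 1437309_a_at (15.43, against 15.08 to 15.12) and Rrm2 1434437_x_at (15.55, against 15.16 to 15.20). In Mcm3 1449705_x_at menin-deficient replicate 1 was high at 14.25, with 14.14 to 14.15 in the others. In Ccnd2 1416122_at control replicate 2 was high at 13.18, with 12.57 to 12.59 in the others.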

How the results depend on the processing

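The call and direction of Men1 held under every alternative run, with differences of -1.50 to -1.29 when single arrays were left out. The counts called, with all arrays, were 3808 probe sets in all, 7 ordinary member sets, 8 member sets ending in _x_at or _s_at and 16 sets of the wider list. Leaving out 1 array gave 1796 to 3375, 2 to 7, 4 to 8 and 7 to 17 in that order. Centred arrays gave 4 ordinary and 5 other member sets. With no filter on dim probe sets the counts were 1935 in all, 3 ordinary member sets and 9 of the wider list. With the brightest probe set per gene they were 2536, 4 ordinary member sets, 3 others and 9 of the wider list, among fewer sets tested. With the mean of a gene's kept sets they were 2011 in all and 9 of the wider list, and leaving out _x_at and _s_at sets gave 10 of the wider list. A threshold of 0.10 gave 5902 in all, 12 ordinary member sets and 28 of the wider list. Equal replicate numbers did not pair the mice (correlations of same-numbered deviations were -0.05, -0.26, -0.14 and 0.08), and a fit with the replicate number as a block gave 1083 in all, 2 ordinary member sets, 0 others and 7 of the wider list, with fewer residual degrees of freedom. Of the 15 called member sets, Cdk4 1422440_at kept its call in all 18 alternatives that tested it, Gins2 1452881_at lost it in 1 of 19, and Mcm7 1416030_a_at in 13 of 18, Rfc2 1417503_at in 11 of 19, Ccne2 in 8 of 19 and Mcm3 in 8 of 18; none changed sign. The 77 member sets not called gained a call in 22 of 1407 values. Otherwise the cause was not tested, and dim sets near the floor limit what can be seen.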
